A study of Homo sapiens with 6 samples.

Results

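A set of 8 long noncoding RNA genes, out of the 26364 genes in the count table, were described across 6 RNA-seq libraries: MALAT1, NEAT1, KCNQ1OT1, TUG1, OIP5-AS1, GAS5, SNHG1 and TUNAR. They were chosen by name, most of them as RNAs that stay in the nucleus or that carry small RNAs in their introns. That description need not hold for OIP5-AS1 and TUNAR. They were also chosen by measured values: the wide range of MALAT1 between libraries and the loss of TUNAR in the knockout clones. Those values are therefore given as descriptions with no test. The libraries came from Ishikawa cells, an estrogen-responsive endometrial adenocarcinoma line. One library each was made from the parental line and from 2 ETV4 knockout clones (clone 1 and clone 2) after 0.1% DMSO, the vehicle, or after 10 nM 17β-estradiol (E2). All cells were first kept for 5 days in hormone-depleted medium. The treatment lasted 8 h by the protocol but 1 h by the sample characteristics. Each knockout group had n = 2 clones and each parental group 1 library, so the knockout cannot be told apart from other differences between cloned and parental cells. ETV4 is an ETS-family transcription factor. Nothing in the labels says that libraries of 1 line came from separate cultures, and p-values measure only the spread between these libraries.

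MALAT1 gathers in nuclear speckles, the bodies that store splicing factors, and NEAT1 is the scaffold around which paraspeckles assemble. KCNQ1OT1 is an unspliced antisense transcript that silences neighbouring imprinted genes in cis, and TUG1 is a largely nuclear RNA linked to gene silencing. OIP5-AS1 (Cyrano) is an abundant conserved RNA that takes part in the decay of a microRNA. GAS5 and SNHG1 are host genes: their introns release small nucleolar RNAs (snoRNAs), which guide modification of ribosomal RNA, while the spliced exons are short-lived and sensitive to translation-coupled decay. TUNAR is an RNA known from pluripotent and neural cells. Bulk RNA gives 1 value per library, so fewer cells with an RNA and less RNA per cell cannot be told apart.

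The libraries held between 28037392 and 36829479 counts. Levels are in CPM, the counts of a gene relative to the TMM-scaled library total. The epithelial markers EPCAM, CDH1, KRT8, KRT18, KRT19 and PAX8 stood above 176 CPM in each library, while MUC1 reached at most 7.03 CPM. Summed over 8 epithelial markers the level was 2498 to 3450 CPM, against at most 85.1 CPM for 5 stromal markers (mostly COL1A1), 4.78 CPM for 4 immune markers and 3.96 CPM for 3 endothelial ones. CD3E was at 0 in each library, and DCN, LUM, PDGFRB, PECAM1 and CDH5 were each at 0 in at least 1. ETV4 was at 19.7 and 28.4 CPM in the parental line in DMSO and E2 and at 2.42 to 3.41 CPM in the clones. GREB1, an estrogen-induced gene, was higher in E2 in each line, with 5.14 to 9.83 CPM in DMSO and 50.1 to 66.2 CPM in E2, as was PGR, with 1.61 to 7.31 and 34.8 to 71.5 CPM. The parental DMSO library stood apart from the rest. Of the 12367 genes that averaged 2 CPM or more, 31.8% had their lowest and 35.8% their highest value there, against at most 19.9% and 17.0% in any other library. In that library the quintile of genes with the longest transcripts lay at a median of -0.16 (log2 CPM about each gene's own mean) and the shortest quintile at 0.06. The quintile richest in GC lay at -0.19 there and the poorest at 0.19. The part of these differences in the results that follow was not tested. The members' E2 changes and most calls of named genes are also given without it.

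The libraries were made by selection of poly(A) RNA, and the mature 3′ end of MALAT1 is known to carry no added poly(A) tail but a tract of A encoded in the gene. The stretch with the longest run of A in the longest GENCODE v29 transcript is shown for 7 of the genes because such runs differ between these RNAs. The run is in capitals, with up to 30 bases on each side.
MALAT1: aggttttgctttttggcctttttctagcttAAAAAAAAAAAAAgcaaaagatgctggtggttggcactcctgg
KCNQ1OT1: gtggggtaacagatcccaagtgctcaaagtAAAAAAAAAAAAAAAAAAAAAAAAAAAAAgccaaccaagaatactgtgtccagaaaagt
TUG1: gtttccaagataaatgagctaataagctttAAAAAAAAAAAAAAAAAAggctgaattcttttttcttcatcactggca
OIP5-AS1: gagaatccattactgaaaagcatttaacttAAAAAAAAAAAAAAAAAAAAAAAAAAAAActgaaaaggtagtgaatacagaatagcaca
GAS5: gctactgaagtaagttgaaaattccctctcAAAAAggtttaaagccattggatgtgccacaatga
SNHG1: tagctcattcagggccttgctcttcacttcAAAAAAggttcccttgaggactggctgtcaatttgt
TUNAR: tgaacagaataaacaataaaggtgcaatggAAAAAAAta
The run held 13 bases in MALAT1 and ended 359 bases before the end of the annotated transcript. It held 29 bases in KCNQ1OT1, 18 in TUG1 and 29 in OIP5-AS1. GAS5 had at most 5, SNHG1 6 and TUNAR 7. The annotated transcripts were 91667 bases long for KCNQ1OT1, 8708 for MALAT1 and 7469 for TUG1, and 1698 for GAS5 and 2768 for SNHG1. What the runs mean for capture in these libraries was not tested.

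MALAT1 had the widest range of the abundant members. In DMSO it stood at 198.5 CPM in parental cells, 306.5 CPM in clone 1 and 1111.5 CPM in clone 2. With E2 the same lines had 1150.8, 988.9 and 1956.1 CPM. The parental and clone 1 DMSO libraries were thus the low ones, clone 2 in E2 was the highest, and clone 2 in DMSO lay within the range of the E2 libraries, so the treatments overlapped. Highest over lowest, the level differed 9.85-fold, and the lowest library held 5905 counts of MALAT1. The range was 6.38-fold without the parental DMSO library and 5.80-fold without clone 2 in E2. Within each line MALAT1 was higher in E2, by 5.80-fold for parental cells, 3.23-fold in clone 1 and 1.76-fold in clone 2. Clone 2 stood above clone 1 by 3.63-fold in DMSO and 1.98-fold in E2. The fitted E2 difference was 1.54 on the log2 scale and 1.04 without the parental DMSO library. No test is given, since the spread of MALAT1 chose it.

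KCNQ1OT1 shared with MALAT1 the lowest library (parental DMSO), the next lowest (clone 1 in DMSO) and the highest (clone 2 in E2). In DMSO its level was 3.19 CPM in parental cells, 7.54 CPM in clone 1 and 12.8 CPM in clone 2. With E2 they had 11.1, 12.2 and 18.6 CPM. The parental DMSO library was the low one, and each line was higher in E2, by 3.46-fold, 1.62-fold and 1.46-fold in that order. The E2 change over the 3 lines was 0.98 on the log2 scale (SE 0.34), and the quasi-likelihood test of edgeR, with p-values adjusted after Benjamini and Hochberg, gave an adjusted p of 0.198. In that test 1.13% of 15611 genes passed: 0.903% of all genes were higher and 0.224% lower in E2. It passed in DESeq2's Wald test (adjusted p 0.0485, where 7.14% of genes passed) and in edgeR without clone 1 or without clone 2 (adjusted p 0.0110 and 6.87e-06), fits in which 4.83% and 21.6% of genes passed. Without the parental DMSO library the change was 0.59, with an adjusted p of 0.662 in edgeR, where 0.361% of genes passed. Of the 7 members tested for E2, 0 passed in edgeR, 1 had an unadjusted p under 0.05 (20.4% of all genes did), 0 passed in limma-voom and 1 in DESeq2. The direct test of the difference in E2 change, clones minus parental line, gave -1.19 (SE 0.58; edgeR adjusted p 0.617). With line as a replicate block it was -1.18 (SE 0.29; edgeR adjusted p 0.00127), a fit in which 15.8% of all genes passed, 8.9% with a larger and 6.92% with a smaller change in the clones. That fit rests on 1 residual degree of freedom and on the parental DMSO library.

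NEAT1 was scarce in these tables, with 7 to 36 counts per library. In DMSO it stood at 0.235 CPM in the parental line (95% exact Poisson interval 0.0946 to 0.485, counting error only), 0.502 CPM in clone 1 and 0.990 CPM in clone 2. With E2 the levels were 0.962, 0.651 and 1.09 CPM. The parental DMSO library was again lowest and clone 2 in E2 highest, and its interval overlapped those of clone 1 in both treatments (0.298 to 0.794 CPM in DMSO and 0.392 to 1.017 CPM in E2). The intervals of the other 5 libraries overlapped one another. Its E2 change was 0.75 (SE 0.51) on the log2 scale, with an adjusted p of 0.421 in edgeR. Without the parental DMSO library it was 0.22. The clones minus parental difference in E2 change was -1.78 (SE 0.98; edgeR adjusted p 0.621).

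TUG1 varied less. Parental cells had 227.7 CPM, clone 1 306.0 CPM and clone 2 403.8 CPM in DMSO, against 324.9, 372.7 and 395.3 CPM in E2. The parental DMSO library was lowest and the others lay within 306 to 404 CPM, with clone 2 slightly lower in E2 than in DMSO. The E2 change was 0.25 (SE 0.16; edgeR adjusted p 0.410), and 0.10 without the parental DMSO library. OIP5-AS1 was the steadiest member, between 80.1 and 91.9 CPM in the 6 libraries, a 1.15-fold range. Its E2 change was 0.01 (SE 0.11; edgeR adjusted p 0.962). Its sign turned to -0.05 without clone 1 and -0.01 without clone 2, and it was 0.06 without the parental DMSO library. OIP5, the coding gene on the opposite strand, ranged from 27.6 to 61.2 CPM with its highest value in the parental DMSO library, where OIP5-AS1 stood at 86.8 CPM.

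**Figure D1:**
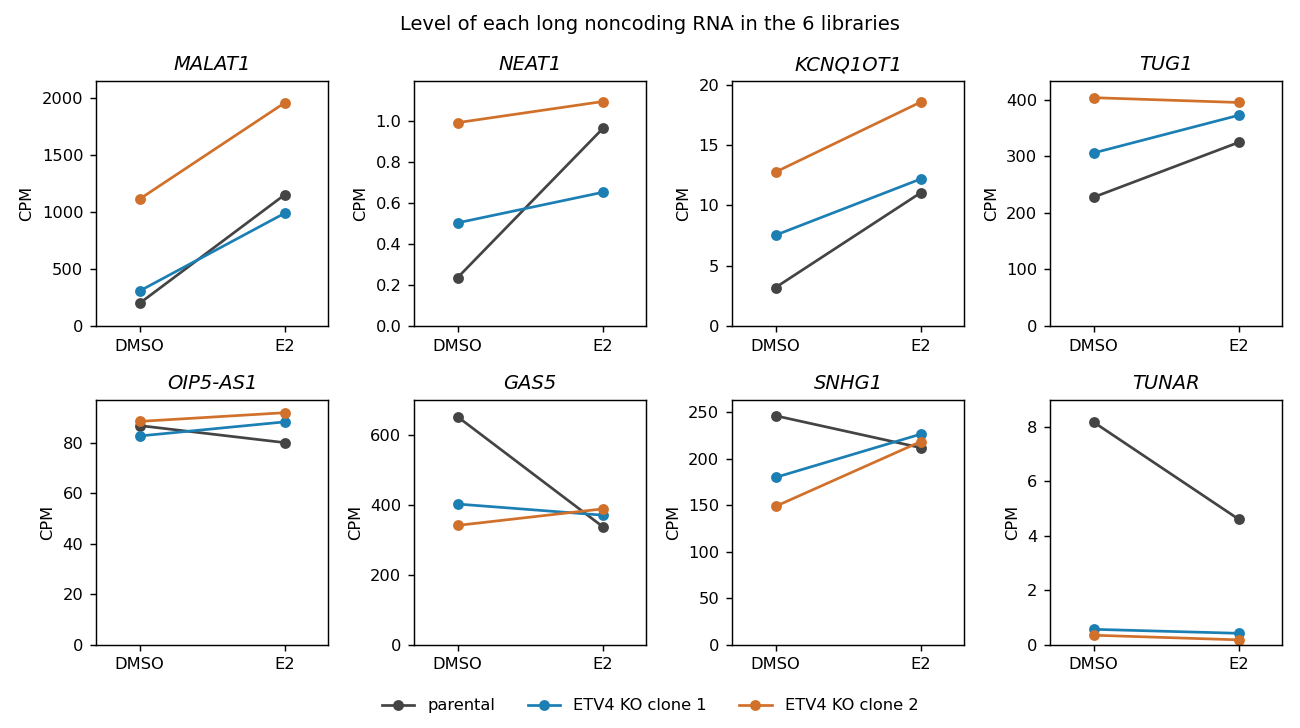
Level of each of the 8 long noncoding RNAs in CPM (linear axis from 0) in DMSO and E2, with 1 point per library and a line joining the libraries of each cell line. MALAT1, NEAT1, KCNQ1OT1 and TUG1 were lowest in the parental DMSO library, GAS5 and SNHG1 were highest there, OIP5-AS1 stayed between 80.1 and 91.9 CPM, and TUNAR was at most 0.558 CPM in the clones.

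The host genes GAS5 and SNHG1 had the opposite arrangement, with their highest value in the parental DMSO library. GAS5 stood at 651.1 CPM there, at 401.5 CPM in clone 1 and at 340.4 CPM in clone 2. With E2 the parental line had 336.6 CPM, clone 1 369.6 CPM and clone 2 387.6 CPM. The 5 libraries other than parental DMSO thus lay between 336.6 and 401.5 CPM. The E2 change was -0.29 (SE 0.22; edgeR adjusted p 0.461), and its sign turned without the parental DMSO library, to 0.01, and without the whole parental line, to 0.02. The E2 change of the clones minus that of the parental line was 0.98 (SE 0.28; edgeR adjusted p 0.617). With the replicate block it was 0.99 (SE 0.26; edgeR adjusted p 0.00328), beside 15.8% of all genes. This too rests on the parental DMSO library: E2 over DMSO was 0.517 for the parental line, 0.921 for clone 1 and 1.14 for clone 2.

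In DMSO, SNHG1 stood at 246.2 CPM in parental cells, 179.8 CPM in clone 1 and 148.7 CPM in clone 2. With E2 the 3 lines lay closer together, at 211.8, 226.4 and 218.5 CPM. E2 over DMSO was 0.860 for parental cells, 1.26 for clone 1 and 1.47 for clone 2. The E2 change over the lines was 0.22 (SE 0.18; edgeR adjusted p 0.485). It was 0.42 without the parental DMSO library, 0.43 without the parental line, 0.14 without clone 1 and 0.058 without clone 2. The clones minus parental difference was 0.65 (SE 0.28; edgeR adjusted p 0.617), and with the replicate block the adjusted p was 0.0542 in edgeR.

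The snoRNA genes inside both hosts gave a separate readout. The RefSeq table places 11 snoRNA genes within GAS5 and 9 within SNHG1, of which 10 and 8 were in the count table and could be tested. All 18 were higher in E2 than in DMSO in each of the 3 lines, against 27.8% of all genes, which is a description with no test. Of 117 snoRNA genes elsewhere, 102 (87.2%) did the same, so the direction was shared with most snoRNA genes in the table. The median E2 change was 0.76 for the snoRNA genes of GAS5, 1.14 for those of SNHG1, 1.19 for the other snoRNA genes and -0.02 for all genes. Without the parental DMSO library the first 2 medians were 0.85 and 1.04.

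In the genes within SNHG1, 1 of 8 passed the E2 test of edgeR and 3 passed when line was a block. All 8 had an unadjusted p under 0.05 (20.4% of all genes), 7 passed in DESeq2 (7.14%) and 1 in limma-voom (1.11%). Of the 117 snoRNA genes elsewhere, 64 had an unadjusted p under 0.05 and 1 passed in edgeR. Within GAS5, 0 of 10 passed, 7 had an unadjusted p under 0.05, 3 passed in DESeq2 and 0 in limma-voom. SNORD26, the one that passed, lies within SNHG1. In DMSO it had 28 counts in parental cells, 40 in clone 1 and 27 in clone 2, against 115, 78 and 80 in E2. No E2 library overlapped a DMSO library. Its change was 1.501 (SE 0.24; edgeR adjusted p 0.0476, or 0.0280 with the block). Without the parental DMSO library 0 of the 18 genes passed in edgeR. SNORD47, the most abundant one within GAS5, stood at 4.17 to 8.10 CPM in DMSO and 6.99 to 11.7 CPM in E2, with a change of 0.73 (SE 0.21; edgeR adjusted p 0.156).

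Set against the host exons, the summed snoRNA counts were higher in E2 in each line. Within GAS5, parental cells had 4.54 snoRNA counts per 100 host counts in DMSO and 12.5 in E2. Clone 1 went from 5.19 to 8.84 and clone 2 from 5.02 to 9.93. Within SNHG1, parental cells went from 4.45 to 13.4, clone 1 from 6.98 to 11.4 and clone 2 from 8.77 to 11.6. The 3 DMSO values lay below the 3 E2 values for each host. Mature snoRNAs carry no poly(A) tail, and mature snoRNAs and unspliced host RNA cannot be told apart in these counts.

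**Figure D2:**
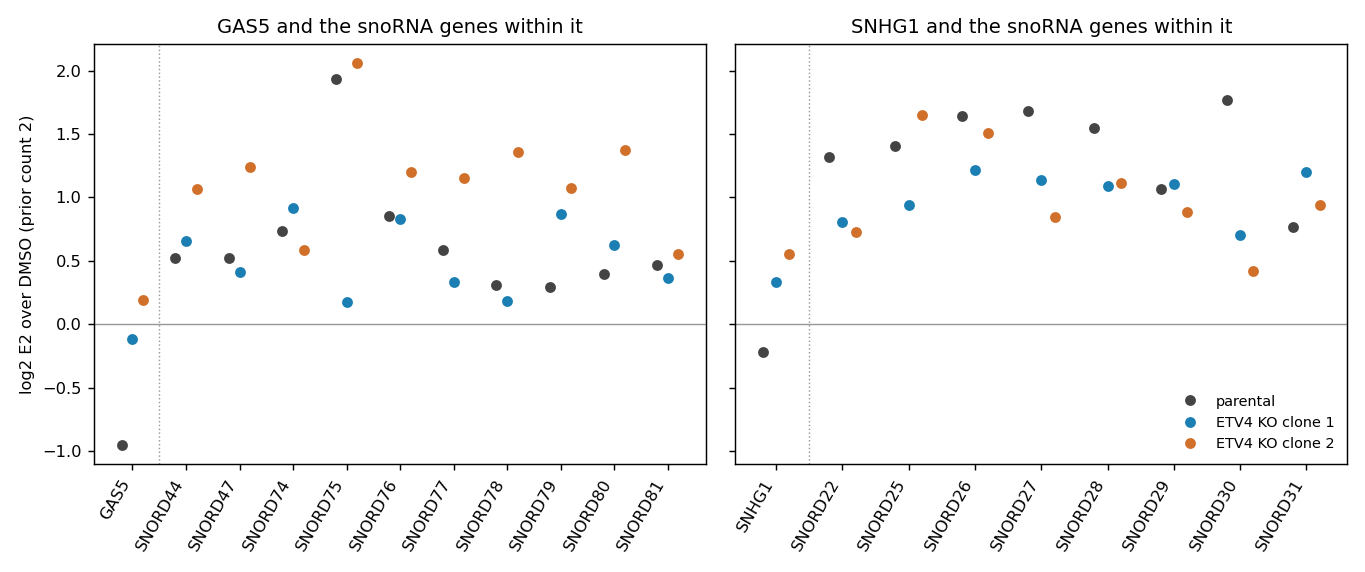
E2 over DMSO on the log2 scale (y axis, prior count 2) for GAS5 and SNHG1, left of the dotted line in each panel, and for the snoRNA genes within each, with 1 point per cell line. All 18 snoRNA genes lie above 0 in the 3 lines, while GAS5 lies at -0.95 and SNHG1 at -0.22 in the parental line.

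Other snoRNA host RNAs were read from a list of 24 (22 tested, GAS5 and SNHG1 not among them). One rose with E2 in edgeR (4.55%, against 0.903% of all genes that rose) and 0 fell, and the median change was 0.23 beside -0.02 for all genes. The gene was SNHG12, which stood at 13.9 to 15.7 CPM in DMSO and 26.6 to 31.8 CPM in E2 with no overlap. Its change was 0.98 (SE 0.14; edgeR adjusted p 0.0286), and without the parental DMSO library it was 0.86 with an adjusted p of 0.145. With the replicate block, the E2 change of 5 of the 22 was larger in the clones and that of 0 smaller. That is 22.7%, against 8.9% of all genes that were larger. Without the block 0 of the 22 passed in edgeR and 0 had an unadjusted p under 0.05, beside 0 and 1190 of all 15611 genes. The block fit rests on 1 residual degree of freedom and on the parental DMSO library. ZFAS1 and SNHG5, both snoRNA hosts, had their highest value in the same library as GAS5, as did 35.8% of 12367 genes. Most hosts on the list had it elsewhere, SNHG12 among them in the parental E2 library. ZFAS1 had 328.5 CPM in the parental DMSO library and 156.2 to 260.0 CPM in the other 5 libraries. SNHG5 stood at 446.0 CPM there and at 193.3 to 301.5 CPM in the others. Both were named after their values were seen.

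**Figure D3:**
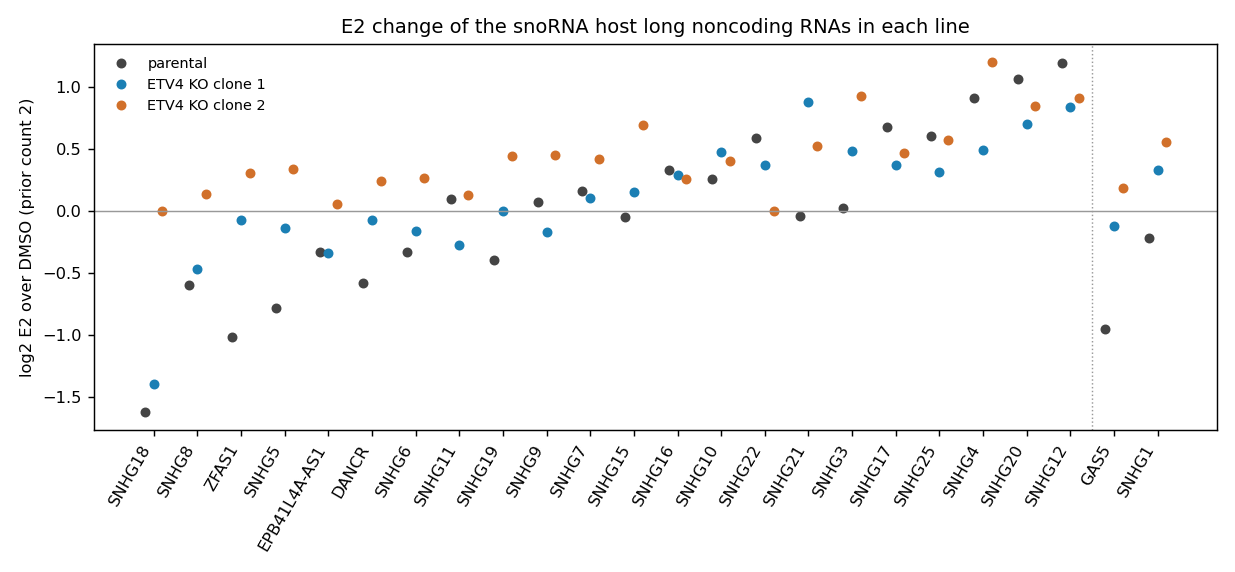
E2 over DMSO on the log2 scale (y axis, prior count 2) for 22 snoRNA host long noncoding RNAs ordered by the fitted change, with GAS5 and SNHG1 right of the dotted line and 1 point per cell line. SNHG12, at the right end of the 22, was higher in E2 in each line; for GAS5, ZFAS1 and SNHG5 the parental point lies below both clones.

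TUNAR was nearly absent from the clones. Parental cells had 243 counts in DMSO and 172 in E2, or 8.17 CPM (95% exact Poisson interval 7.17 to 9.26) and 4.60 CPM (3.93 to 5.34). Clone 1 had 20 and 12 counts, or 0.558 and 0.411 CPM, and clone 2 had 10 and 5, or 0.341 and 0.171 CPM. No clone library reached the parental range. As a share of the parental level, the clones had 5.51% ± 1.88 (SD, n = 2) in DMSO and 6.33% ± 3.70 (SD, n = 2) in E2. The fitted log2 difference was -4.07 over both treatments and -3.97 without the parental DMSO library. The share of all genes that passed this comparison was 0.327% (0.147% higher and 0.179% lower), and 0.0129% without that library, which says nothing here because the difference chose the gene. The clone values of TUNAR rest on 5 to 20 counts per library. Its E2 change, which the choice did not use, was -0.73 (SE 0.36; edgeR adjusted p 0.298), and it was lower in E2 in 3 of 3 lines. The change was -0.65 without the parental DMSO library.

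For the other members the knockout contrast is also only described. In DMSO both clones stood above the parental line for MALAT1, NEAT1, KCNQ1OT1 and TUG1, by 0.63 and 2.48 on the log2 scale for MALAT1 and by 1.22 and 1.98 for KCNQ1OT1. They stood below it for GAS5, by -0.70 and -0.94, and for SNHG1, by -0.45 and -0.73. In E2 the same differences were -0.22 and 0.77 for MALAT1, 0.14 and 0.75 for KCNQ1OT1, 0.13 and 0.20 for GAS5, and 0.10 and 0.04 for SNHG1. The arrangement in DMSO was therefore not repeated in E2 for GAS5 and SNHG1. The fitted difference over both treatments was 1.03 for MALAT1, but 0.35 without the parental DMSO library and 0.20 without clone 2. For GAS5 it was -0.35 and turned to 0.16 without that library, for SNHG1 it was -0.27 and turned to 0.06, and for NEAT1 it was 0.56 and turned to -0.15.

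The sequence at the starts of MALAT1 and TUNAR is shown because these 2 genes had the widest ranges. Each window is from RefSeq (GRCh38.p14) and runs from 250 bases before to 50 bases from an annotated start, 5′ to 3′ along the gene. Capitals mark the first 5 transcribed bases and any match to the motifs searched. The count files were made on another build, hg19 per the submitters' processing notes.
MALAT1, chr11:65497488-65497787, plus strand: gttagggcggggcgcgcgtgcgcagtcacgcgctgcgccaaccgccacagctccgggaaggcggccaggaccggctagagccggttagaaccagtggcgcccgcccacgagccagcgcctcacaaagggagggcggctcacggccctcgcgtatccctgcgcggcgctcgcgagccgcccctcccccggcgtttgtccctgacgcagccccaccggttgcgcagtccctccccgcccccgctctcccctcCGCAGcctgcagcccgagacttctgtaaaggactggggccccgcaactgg
MALAT1, chr11:65498795-65499094, plus strand: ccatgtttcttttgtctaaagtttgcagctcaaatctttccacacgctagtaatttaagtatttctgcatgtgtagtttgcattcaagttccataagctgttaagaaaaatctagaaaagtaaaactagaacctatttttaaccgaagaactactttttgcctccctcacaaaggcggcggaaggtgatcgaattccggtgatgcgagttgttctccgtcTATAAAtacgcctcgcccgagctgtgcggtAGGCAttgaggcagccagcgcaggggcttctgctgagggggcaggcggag
TUNAR, chr14:95876198-95876497, plus strand: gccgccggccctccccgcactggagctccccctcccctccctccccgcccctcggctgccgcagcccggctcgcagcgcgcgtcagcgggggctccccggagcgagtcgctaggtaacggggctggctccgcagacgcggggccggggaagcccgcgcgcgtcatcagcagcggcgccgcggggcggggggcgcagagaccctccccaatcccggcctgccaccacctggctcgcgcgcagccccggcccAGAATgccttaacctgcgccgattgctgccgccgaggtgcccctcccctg
TUNAR, chr14:95876582-95876881, plus strand: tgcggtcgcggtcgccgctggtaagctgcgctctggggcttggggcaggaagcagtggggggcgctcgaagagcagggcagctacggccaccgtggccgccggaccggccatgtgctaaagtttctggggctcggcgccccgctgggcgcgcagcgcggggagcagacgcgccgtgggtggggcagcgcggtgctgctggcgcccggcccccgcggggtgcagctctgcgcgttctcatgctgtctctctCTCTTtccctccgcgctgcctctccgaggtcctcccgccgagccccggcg
Windows were found for 6 of the 8 members, 8 windows in all, and both strands were searched. The motif CCGGAAG, bound by ETS factors, matched none of the 8 windows, against 10.3% of 35116 windows in the RefSeq table. The full estrogen response element matched none either, against 0.057% of those windows. Its shorter form, AGGTCA, matched once, in the window of GAS5, and 13.8% of all windows held it. The TATA box, searched as TATAAA, matched in the second window of MALAT1, before the start, and 11.5% of all windows held it. It also matched in the window of SNHG1, but after the start and on the opposite strand. The E-box, searched as CACGTG, matched in the windows of TUG1 and OIP5-AS1, beside 7.26% of all windows. A motif of this kind is a match of letters and not a binding site.

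The range of the members over the 6 libraries was set beside that of 246 other long noncoding RNAs that averaged 2 CPM or more, taken by their symbols. The median log2 ratio of highest over lowest was 0.91 for those RNAs and 0.70 for 12360 genes of that level. MALAT1, at 3.30, was exceeded by 4 of the 246: MSC-AS1, LINC00565, CTBP1-AS and UCKL1-AS1, whose means ran from 2.65 to 3.96 CPM. TUNAR, at 5.14, was exceeded by 0, and KCNQ1OT1, at 2.52, by 14. OIP5-AS1, at 0.20, was below 245 of them. GAS5 at 0.95, TUG1 at 0.83 and SNHG1 at 0.73 lay near the median. Without the parental DMSO library KCNQ1OT1 moved from the percentile 94.3 to 86.4, GAS5 from 53.3 to 6.43, TUG1 from 42.7 to 18.9, SNHG1 from 36.2 to 42.2 and MALAT1 from 98.4 to 98.8. These ranks are descriptions, since range was part of the choice.

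**Figure D4:**
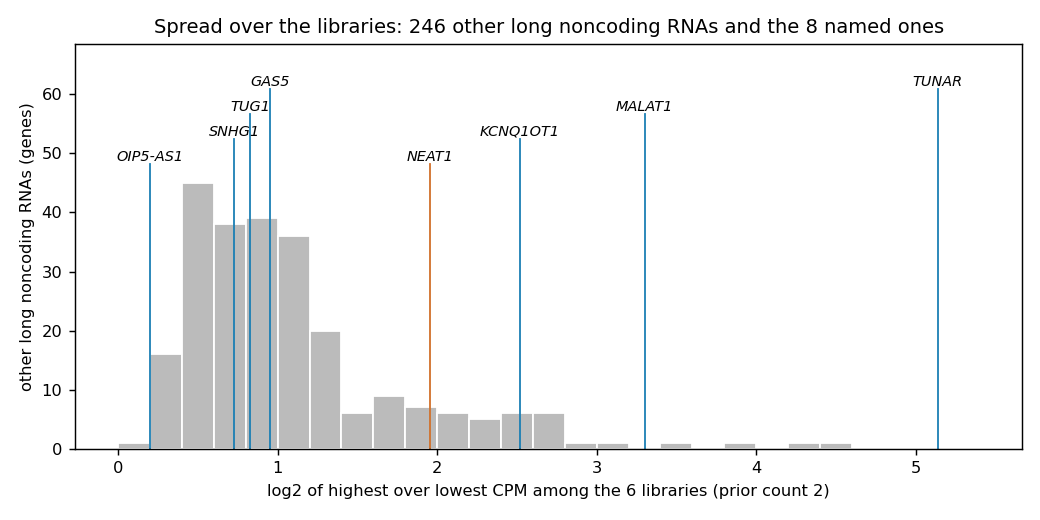
Number of other long noncoding RNAs (grey bars, 246 genes that averaged 2 CPM or more) by the log2 ratio of their highest to their lowest CPM among the 6 libraries. Vertical lines mark the 8 members, with NEAT1 in orange because its mean of 0.739 CPM is under the minimum; OIP5-AS1 lies at 0.20, MALAT1 at 3.30 and TUNAR at 5.14.

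The genes with the profile most like that of MALAT1 were found by the root mean square distance between log2 CPM values centred on each gene's mean over the 6 libraries, among 12367 genes. They were UCKL1-AS1 (distance 0.248), NPTN-IT1 (0.264), MIRLET7BHG (0.267), MLXIPL (0.289) and FER1L4 (0.290). The first 3 are typed as long noncoding RNA in RefSeq, MLXIPL encodes a glucose-responsive transcription factor, and FER1L4 is not typed as long noncoding there. MLXIPL stood at 8.00, 14.1 and 27.1 CPM in DMSO in the parental line, clone 1 and clone 2, and at 44.9, 35.3 and 64.1 CPM in E2. The nearest to TUNAR were PCDH7 (0.641), the targeted gene ETV4 itself (0.681), ALDH3A1 (0.831), FAM208A (0.834) and TGFBI (0.836). PCDH7, a protocadherin, stood at 14.7 and 5.67 CPM in the parental line and at 0.752 to 1.74 CPM in the clones. With a minimum of 5 CPM, 1 of the 5 neighbours of MALAT1 and 3 of the 5 of TUNAR were the same genes. NEAT1 was under the minimum and has no neighbours here. All these points share the same 6 libraries.

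**Figure D5:**
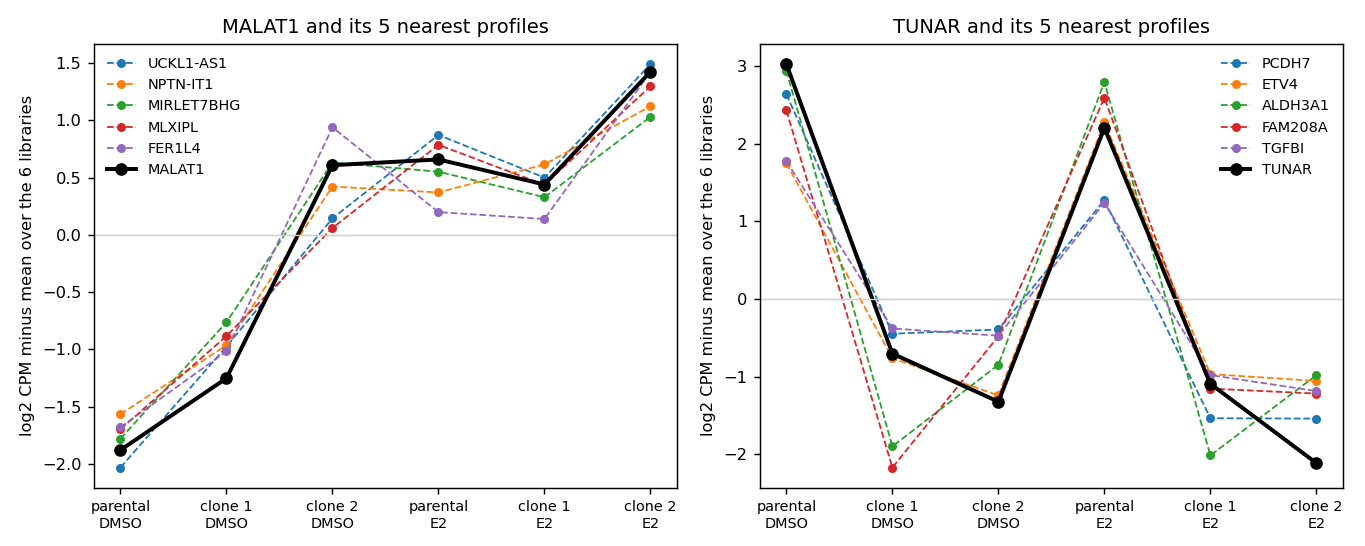
Log2 CPM minus each gene's mean over the 6 libraries (y axis) for MALAT1 and TUNAR (black) and the 5 genes nearest to each (colours), by library. MALAT1 and its neighbours are lowest in the parental DMSO library and highest in clone 2 in E2, and TUNAR and its neighbours are high in both parental libraries.

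Among 661 other long noncoding RNAs tested, taken by symbol, 2 rose with E2 and 0 fell in edgeR (0.303%, against 0.903% of all genes that rose), and 135 reached an unadjusted p under 0.05, beside 20.4% of all genes (3180 of 15611). By the RefSeq type 5 of 855 passed (0.585%), and without the parental DMSO library 1 passed by that type and 0 by symbol. The 2 were SNHG12, given above, and LINC00565. LINC00565 stood at 0.336 to 1.20 CPM in DMSO and 6.73 to 8.16 CPM in E2, with a change of 3.49 (SE 0.42; edgeR adjusted p 0.0186). Without the parental DMSO library its change was 3.15 and its adjusted p 0.0820. With the replicate block 12 of the 661 passed (1.82%, against 2.46% of all genes). MIR17HG, the host of an oncogenic microRNA cluster, was among them with an adjusted p of 0.0376 in edgeR, at 7.13 to 16.3 CPM in DMSO and 22.4 to 33.2 CPM in E2. Without the block its adjusted p was 0.102 in edgeR, and without the parental DMSO library, where MIR17HG was lowest, its change was 1.13 with an adjusted p of 0.402.

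In the knockout contrast 1 of the 661 passed in edgeR (0.151%, against 0.327% of all genes), 8 in DESeq2 (2.91% of all genes) and 1 in limma-voom (0.365% of all genes). An unadjusted p under 0.05 was reached by 46 of the 661, and by 11.4% of all genes (1787 of 15611). The gene that passed in edgeR, EPHA5-AS1, stood at 4.98 and 2.19 CPM in the parental line and at 0.0683 to 0.112 CPM in the clones. The fitted log2 difference of EPHA5-AS1 was -5.37 (SE 0.36; adjusted p 0.00868 in edgeR), and without the parental DMSO library -4.93 with an adjusted p of 0.275. It passed the filter on low counts through the parental libraries, where it is high, so the test is no independent support for the difference. It lies antisense to EPHA5, and whether counting used strand is not given in the sources used here, so reads of the pair cannot be told apart. The same holds for KCNQ1OT1 with KCNQ1 and OIP5-AS1 with OIP5.

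Genes for the proteins that work with these RNAs were read as lists. Of 27 paraspeckle protein genes, 0 passed the E2 test in edgeR, limma-voom or DESeq2, 1 had an unadjusted p under 0.05, and the median change was 0.07. NONO, a core paraspeckle protein that binds NEAT1, stood at 549.0 to 702.4 CPM in the 6 libraries with a change of -0.16 (SE 0.13). HNRNPK ranged from 1026.5 to 1280.9 CPM. Of 26 nuclear speckle genes, 0 passed in edgeR or limma-voom and 3 in DESeq2, 9 had an unadjusted p under 0.05, and the median was 0.22, beside 7.14% of all genes in DESeq2 and 20.4% at that unadjusted p. SRRM2, a speckle scaffold, shared the low parental DMSO value of MALAT1, with 342.9 CPM there, 533.0 and 721.4 CPM in the clones in DMSO and 839.8 to 994.4 CPM in E2. Its change was 0.87 (SE 0.25; edgeR adjusted p 0.156). SRSF1 differed by 0.38 (SE 0.13; edgeR adjusted p 0.198). Of 16 genes of nonsense-mediated decay, 0 passed with any of these tools and 3 had an unadjusted p under 0.05, with a median of 0.20. The named ones, RBM8A and EIF4A3, differed by -0.03 (SE 0.12) and -0.13 (SE 0.12).

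A list of genes taken by name for the imprinted domain of KCNQ1OT1 held 10 tested genes. Positions were not checked, and TSSC1, 1 of the 10, may lie outside the domain. Of the 10, 0 passed in edgeR or limma-voom, 3 passed in DESeq2 and 5 were under 0.05 before adjustment, beside 7.14% and 20.4% of all genes. When line was a block 1 passed and was lower. The median E2 change was -0.13. NAP1L4, a histone chaperone gene, stood at 252.5 to 286.2 CPM in DMSO and 403.2 to 436.2 CPM in E2, with a change of 0.67 (SE 0.13; edgeR adjusted p 0.0757). CD81, a tetraspanin gene, differed by -0.25 (SE 0.13). KCNQ1, the gene opposite KCNQ1OT1, stood at 3.06 and 4.33 CPM in the parental line and 6.03 to 9.22 CPM in the clones. With E2 both clones had less KCNQ1, by -0.17 and -0.31 on the log2 scale, and more KCNQ1OT1. Parental cells had more of both RNAs with E2, by 0.49 for KCNQ1 and 1.77 for KCNQ1OT1. Each of these RNAs was lowest in the parental DMSO library. The fitted E2 change of KCNQ1 was -0.01 (SE 0.24). Whether the levels of these RNAs are linked was not tested. A list taken by name as neighbours of the members held 16 tested genes. KCNQ1 and SNORD22, both on it, are also counted above. Positions were not checked, and ELAVL1, also on it, may lie elsewhere. Of this list SLC3A2, the amino acid transporter chain beside SNHG1, rose in edgeR (6.25%, against 0.903%). SLC3A2 stood at 176.1 to 198.9 CPM in DMSO and 358.3 to 418.3 CPM in E2. Its change was 1.06 (SE 0.13; edgeR adjusted p 0.0208), and without the parental DMSO library it was 0.95 with an adjusted p of 0.110 in edgeR. SNHG1 itself differed by 0.22, as given above.

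None of these lists had a gene past the threshold in the knockout contrast in edgeR or limma-voom: 0 of 22 snoRNA hosts, 0 of 27 paraspeckle, 0 of 26 speckle, 0 of 16 decay, 0 of 10 imprinted-domain and 0 of 16 neighbour genes passed. Unadjusted p-values under 0.05 numbered 1, 0, 1, 1, 4 and 3 in that order (11.4% of all genes). DESeq2 (2.91% of all genes) called 3 genes of the imprinted-domain list and 1 of the neighbour list. The median knockout differences were -0.26, -0.06, 0.00, 0.10, 0.33 and -0.03, beside 0.01 for all genes. Of 21 other named long noncoding RNAs, 0 passed the E2 or the knockout test in edgeR or limma-voom, with 2 and 3 at an unadjusted p under 0.05 and 1 and 0 called by DESeq2. Their medians were 0.11 for E2 and -0.19 for the knockout. The most abundant of those, LINC00657 (NORAD), a cytoplasmic RNA that binds Pumilio proteins, stood at 185.4 CPM in the parental DMSO library and at 242.6 to 394.5 CPM in the other 5. MIR99AHG stood at 32.7 to 51.8 CPM. A list of genes taken as making transcripts without a poly(A) tail, mostly replication-dependent histone genes, held at most 0.010% of the counts of a library. Whether the transcripts counted here lacked a tail was not tested. Of 13 tested, 0 passed either test in edgeR, limma-voom or DESeq2, with 4 at an unadjusted p under 0.05 for E2 and 1 for the knockout, and medians of -0.28 and -0.25. HIST1H1C stood at 48.3 CPM in the parental DMSO library and 24.2 to 30.3 CPM in the others, and HIST2H2BE at 10.2 to 15.3 CPM in all 6.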

How the data were processed

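Gene counts of 6 poly(A)-selected RNA-seq libraries were analysed. The authors deposited raw counts per gene symbol and a second table of normalized signal. In that deposited table each signal value equalled the count over the DESeq2 median-ratio size factor recomputed here (0.926 to 1.19). Per the submitters' processing notes, HISAT2, SAMtools, Subread, DESeq2 and the build hg19 were used. The annotation, the treatment of reads that map to several genes and the use of strand in counting are not given in the sources used here. Column names ending in ER and DMOS were read as E2 and DMSO. No per-sample column was left unused.

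The tests ran on these counts with edgeR 4.0.16 under R 4.3.3: filterByExpr on the 4 groups (15611 of 26364 genes, all 8 members among them), TMM scaling, and the quasi-likelihood test with Benjamini-Hochberg adjustment over all tested genes at 0.05. Treatment and genotype were in 1 model, and their interaction in another. Standard errors are the coefficient over the square root of F. For ratios of 2 libraries, log2 CPM had a prior count of 2. The main models held no term for line, so the knockout p-values treat the DMSO and E2 libraries of 1 clone as separate. Libraries were paired by line, which the labels give, only for ratios within a line and in the replicate block. The difference between the clones correlated between treatments at 0.626 across genes. For the replicate block, line entered as a fixed factor, or as a random effect in limma 3.58.1 for the knockout. Alternatives were DESeq2 1.42.0, limma-voom, median-ratio scaling, other filters and left-out lines. The parental DMSO library was left out after seeing the data, and the RefSeq gene type was used as another definition of long noncoding RNAs likewise. A total of 25197 symbols matched the RefSeq table. The members and lists were chosen with earlier results of these data known.

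Named were all members. In each list up to 3 genes per direction with the largest E2 change among those called were named, and up to 2 for the knockout. Where none was called, the 2 most abundant were named. The 5 nearest profiles of MALAT1 and TUNAR were named too. The snoRNA genes within GAS5 and SNHG1, MIR17HG, KCNQ1, CDKN1C, OIP5, ZFAS1 and SNHG5 were added after their values were seen. TSSC1 and ELAVL1 were named as doubtful members of their lists. Scripts were tested on simulated data. One transcript sequence is not reported here.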

Additional observations from a re-analysis of the deposited data

Results flagged for a closer look

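For 4 members the E2 change in the clones was flagged against that in the parental line. The flag came from the test of the difference for 2 and from opposite signs alone for the others. KCNQ1OT1 had a smaller increase in the clones, by -1.18 on the log2 scale with the replicate block, and GAS5 a difference of 0.986. Both passed the direct test of the difference with the block (adjusted p of 0.00127 and 0.00328 in edgeR) and not without it (0.617 for each). With the block 15.8% of all genes passed that test. The share of all genes with opposite signs in the parental line and both clones was not counted. All 4 flags rest on the single parental pair. For SNHG1 the E2 ratio (log2) was -0.217 in the parental line and 0.33 and 0.55 in the clones, and for OIP5-AS1 it was -0.117 against 0.09 and 0.06. The direct tests of these 2 differences gave adjusted p-values of 0.617 and 0.792 in edgeR, and 0.0542 and 0.633 with the block.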

How the results depend on the processing

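Each parental group was 1 library, and the depth left NEAT1 with at most 36 counts and TUNAR with at most 20 in the clones. The number of genes called for E2 was 176, with 1115 in DESeq2, 384 with the replicate block and 49 to 3353 when a line was left out (745 without clone 1, 56 without the parental DMSO library, which was chosen after seeing the data). Of the members 0 were called for E2, but 1, KCNQ1OT1, was called in DESeq2. It was also called without clone 1 and without clone 2, in fits with 1 library per group and 1 residual degree of freedom. Its E2 change ran from 0.59 to 1.22, with 0.98 in DESeq2, 1.11 without clone 1 and 1.22 without clone 2. With a line left out the E2 change of OIP5-AS1 ran from -0.055 to 0.066, reversed without clone 1 (-0.055) and without clone 2 (-0.011). That of GAS5 ran from -0.535 to 0.022, reversed without the parental line (0.022) and without the parental DMSO library (0.012). These reversals were seen in fits with fewer libraries, and the cause of these and of the other moves was not tested. The interaction called 0 genes, 29 in DESeq2 and 2470 with the replicate block, among them 2 members, KCNQ1OT1 (-1.18) and GAS5 (0.99); the block changed no other call of a member. With a line left out it leaves no residual degree of freedom and was not run. The knockout contrast called 51 genes, 46 with line as a random replicate block, 454 in DESeq2, and 2 to 996 with libraries left out (631 without clone 1, 996 without clone 2, 2 without the parental DMSO library). The MALAT1 range was 9.85, 11.3 with total counts, and 5.80 to 9.85 with each library left out (5.80 without clone 2 in E2, 6.38 without the parental DMSO library). The median range of other long noncoding RNAs was 0.91 and fell to 0.66 without the parental DMSO library. The TUNAR percentages kept within their SD under median-ratio, total-count and deposited scaling.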
